A study of Mus musculus with 14 samples.

Results

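TRIM (tripartite motif) genes are one of the largest groups of RING-type ubiquitin ligases in mammals, and they were described here in livers of mice with chemically induced acute liver failure. The members were all genes whose symbol is Trim, a number and an optional letter, which gave 68 of the 55357 genes counted. By a list of interferon-inducible TRIM genes, 16 members were taken as interferon-responsive and the other 52 as a second class. The list was chosen with earlier results of these data known, so differences between the classes are a description and not an independent check. The 8 model livers came from male C57BL/6 mice injected into the peritoneum with 10 µg/kg lipopolysaccharide (LPS, an endotoxin of bacteria) plus 300 mg/kg D-galactosamine (D-GalN, a sugar that poisons hepatocytes). The 6 control livers came from male C57BL/6 mice given saline, and both groups were taken 24 h after injection. All mice were 5 to 6 weeks old at the start of housing, per the labels' protocols, and no transgene or mutation is named for either group. The agents were given together, so an effect of LPS and an effect of D-GalN cannot be told apart. Whether every sample comes from its own animal is not said in the labels, so the p-values rest on sample spread alone, which may be technical.

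A TRIM protein carries a RING finger that recruits a ubiquitin-charged E2 enzyme, then B-box zinc fingers and a coiled coil through which the proteins pair, and a variable C-terminal domain, often PRY-SPRY, that binds the target. Many TRIM genes are switched on by interferons, and their products restrict viruses or tune the signalling of RNA sensors, Toll-like receptors and the inflammasome. In mice, a cluster on chromosome 7 holds Trim5, Trim6, Trim12a, Trim12c, Trim30a to Trim30d, Trim34a and Trim34b, the relatives of the primate retrovirus restriction factor TRIM5.

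Interferon-regulated promoters often carry the interferon-stimulated response element, which IRF proteins bind. Its core was searched as GAAA, any 2 bases and GAAA, on both strands, from 250 bases before to 50 bases after each annotated start, in RefSeq windows of GRCm38.p6. Of the 68 members, 53 matched a window by symbol, with 67 windows in all, and the members matched include 15 of the 16 interferon-responsive genes. The core was found in 9 of 16 windows of interferon-responsive members, in 1 of 51 windows of other members, and in 3.44% of all 32851 windows. These 9 windows are not independent of each other. The stretches below are identical up to the end of the core in Trim5, Trim12a and Trim12c. Those of Trim30a and Trim30d are nearly the same. The 8 interferon-responsive genes with a match were Trim5, Trim12a, Trim12c, Trim21, Trim26, Trim30a, Trim30d and Trim34a. The stretches around the matches are shown because the members are described by this class below, and the calls did not divide by the presence of a match. They are read 5′ to 3′ on the strand of the gene, and the capitals mark the core, which reads TTTC, 2 bases and TTTC where it lies on the opposite strand.
Trim30a, upstream start, chr7:104465196-104465253, minus strand: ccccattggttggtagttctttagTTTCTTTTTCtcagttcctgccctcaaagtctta
Trim30a, downstream start, chr7:104446114-104446147, minus strand: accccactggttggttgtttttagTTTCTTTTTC
Trim30d, chr7:104507857-104507914, minus strand: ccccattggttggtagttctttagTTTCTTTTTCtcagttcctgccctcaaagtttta
Trim12a, chr7:104315476-104315509, minus strand: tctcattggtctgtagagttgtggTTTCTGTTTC
Trim12c, chr7:104353350-104353402, minus strand: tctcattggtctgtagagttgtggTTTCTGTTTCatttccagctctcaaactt
Trim5, chr7:104288122-104288179, minus strand: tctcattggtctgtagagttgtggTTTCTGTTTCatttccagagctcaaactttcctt
Trim34a, chr7:104244443-104244476, plus strand: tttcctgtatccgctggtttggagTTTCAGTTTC
Trim21, chr7:102565454-102565493, minus strand: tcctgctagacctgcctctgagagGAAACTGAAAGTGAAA
Trim26, chr17:36836962-36837025, plus strand: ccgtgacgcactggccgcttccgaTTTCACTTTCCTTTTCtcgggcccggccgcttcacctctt

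Trim21 and Trim26 each held 2 overlapping matches. In Trim26 the first matched base lay 160 bases before the start, and in the other 7 genes the matches lay between 49 bases before and 29 bases after it. Of the 8 genes with the core, 6 were higher in model livers by the test given below, all but Trim5 and Trim26. Of the 7 interferon-responsive genes whose window held no match, Trim6, Trim30b, Trim30c and Trim56 were also higher, Trim25 was not called, and Trim34b and Trim38 were not tested. Trim2, which was not called, was the only other member with a match. A single form of the NF-kB site, searched as GGG, any 2 bases and TTTCC, was found in 0 of the 67 TRIM windows and in 1.63% of all windows. Other forms of this site were not searched, and 67 windows are too few to tell 0 from that share. A match says only that these letters stand in the window.

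**Figure D1:**
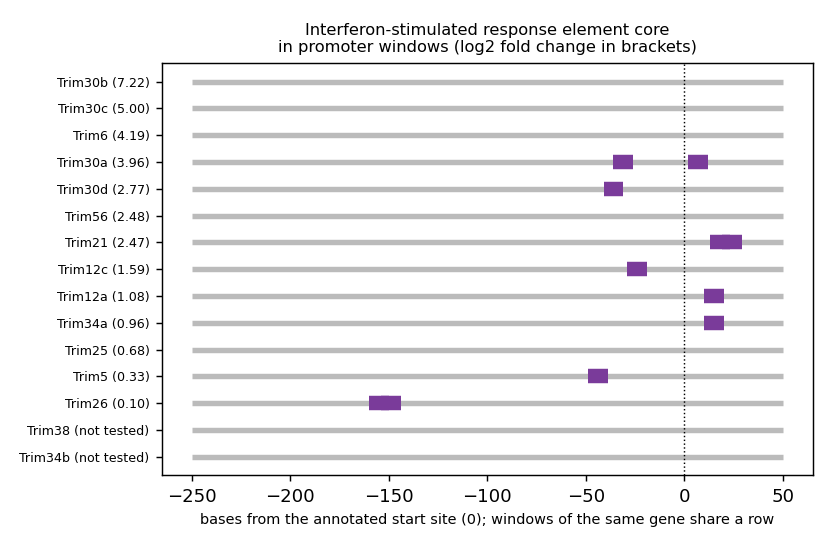
Positions of the response element core (purple) in the promoter windows (grey) of 15 interferon-responsive TRIM genes, in bases from the annotated start, with the log2 fold change of model over control in brackets. Genes with a match run from Trim30a at 3.96 to Trim26 at 0.10, and the 3 genes with the largest fold changes, Trim30b, Trim30c and Trim6, have none.

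The model libraries held 10329469 to 16639972 counts in genes, and the control libraries 7914120 to 14463540. Hepatocyte markers, such as albumin, summed to between 84020 and 96460 CPM (counts scaled to library size) in model livers and between 57400 and 79460 CPM in controls. Albumin made up much of this sum, with a mean of 52290 CPM in model livers and 29440 CPM in controls. By the test given below, 3 of the 10 markers were higher and 0 were lower, where 26.6% and 21.3% of all tested genes were. Libraries differed within groups in how their values moved with gene length. The slope of log2 CPM deviation per doubling of exonic length ran between -0.22 and 0.27 in model and between -0.23 and 0.36 in control libraries, with the highest slopes in model 7 and control 6. Ribosomal RNA genes took 5.79% and 4.10% of the counts of models 3 and 4 and 0.816% to 2.21% of the other model libraries, against 0.120% to 1.98% of control libraries.

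Interferon-responsive TRIM genes were higher in the model livers and made up 10 of the 15 members called higher. Trim30a, which in mouse macrophages is induced by LPS and restrains Toll-like receptor signalling, was 15.6-fold higher, and its neighbours Trim30b, Trim30c and Trim30d were higher with it. Trim6, Trim21, Trim56, Trim12a, Trim12c and Trim34a were also higher, and Trim25, the ligase that acts on the RNA sensor RIG-I, was not called. Genes were tested with edgeR's quasi-likelihood test, and a gene was called at a Benjamini-Hochberg adjusted p under 0.05 over the 12915 genes that passed the filter on low counts. Of the 35 members tested, 15 were higher and 4 were lower, where 26.6% of all tested genes were higher, 21.3% were lower and 47.9% were called in either direction. Among the 14 interferon-responsive members tested, 10 were higher and 0 were lower, with a median log2 fold change of 2.03, against 0.01 over all tested genes. The count of 0 lower was the same by DESeq2 and by limma-voom, and 0 members were lower at an unadjusted p under 0.05. Among the 21 other members tested, 5 were higher and 4 were lower, with a median log2 fold change of 0.13, so the shares of this class were near or below those of all tested genes. At a change of at least 2-fold, 9 interferon-responsive and 2 other members were higher, against 20.3% of all tested genes, and 2 other members were lower, against 12.7%.

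**Figure D2:**
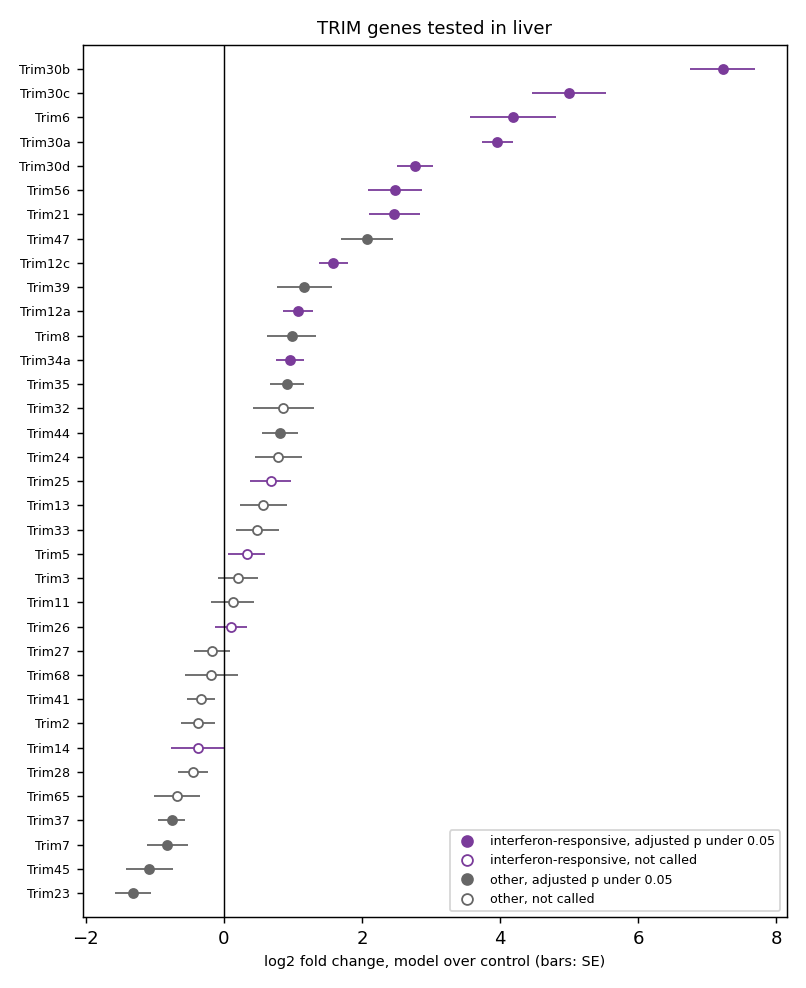
Log2 fold change of model over control for the 35 TRIM genes tested (x axis, bars show the SE), ordered by size; filled points have an adjusted p under 0.05 and purple points are interferon-responsive. Values run from 7.22 for Trim30b to -1.32 for Trim23, and the 7 highest are all interferon-responsive.

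The Trim30 genes are mouse relatives of TRIM5 that lie side by side on chromosome 7. Trim30a (ENSMUSG00000030921.18) had a lowest, median and highest value of 62.3, 78.6 and 115.6 CPM in model livers, against 4.11, 5.55 and 6.85 CPM in control livers. Every model liver lay far above every control liver, and the log2 fold change was 3.96 (SE 0.22, adjusted p 1.81e-10 by edgeR's quasi-likelihood test). Trim30d (ENSMUSG00000057596.14), whose promoter stretch above is nearly the same as that of Trim30a, had 22.8, 27.8 and 60.2 CPM in model livers, against 4.04, 4.95 and 6.08 CPM in control livers. Its groups did not overlap either, with the highest values in models 7 and 8, and its log2 fold change was 2.77 (SE 0.26, adjusted p 1.51e-07 by edgeR's quasi-likelihood test). Trim30b (ENSMUSG00000052749.10) had 11.6, 20.3 and 35.7 CPM in model livers, against 0, 0.108 and 0.296 CPM in control livers, where it was almost silent. With a log2 fold change of 7.22 (SE 0.46, adjusted p 1.16e-09 by edgeR's quasi-likelihood test) it had the largest change of the family. Trim30c (ENSMUSG00000078616.3) had 1.57, 2.80 and 4.55 CPM in model livers, against 0, 0.0274 and 0.247 CPM in control livers, and its log2 fold change was 5.00 (SE 0.54, adjusted p 6.83e-07 by edgeR's quasi-likelihood test). Neither group of Trim30b or Trim30c reached the other.

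The 4 Trim30 genes did not share one order among the model livers. Trim30a and Trim30d were highest in models 7 and 8, at 115.6 and 107.5 CPM for Trim30a. Trim30b was lowest in the same livers, at 12.8 and 11.6 CPM, and highest in model 3, at 35.7 CPM. Trim30c lay between 3.40 and 4.55 CPM in models 1 to 4 and between 1.57 and 2.21 CPM in models 5 to 8. Summed over the 4 genes, the level was 110.3, 130.6 and 190.2 CPM in model livers (lowest, median, highest), against 8.61, 10.9 and 12.9 CPM in controls. Of the distinct 50-base stretches in the exons of Trim30a, 5.98% also occur in another TRIM gene, and 7.49% of those of Trim30d do. For Trim30b and Trim30c the shares were 0.406% and 0.66%.

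The log2 fold changes of the other tested cluster members lay between 0.33 for Trim5 and 4.19 for Trim6. Trim6, whose human protein builds free ubiquitin chains that activate the kinase IKK epsilon, had a lowest, median and highest value of 0.639, 2.02 and 5.96 CPM in model livers, against 0, 0.141 and 0.247 CPM in control livers. Its groups did not overlap, and its log2 fold change was 4.19 (SE 0.63, adjusted p 2.93e-05 by edgeR's quasi-likelihood test); without models 7 and 8, where it was highest, it failed the filter on low counts. Trim12c, one of the mouse genes closest to primate TRIM5, had 14.1, 19.5 and 27.3 CPM in model livers, against 4.67, 6.72 and 9.19 CPM in control livers. Again no model liver reached down to a control liver, and the log2 fold change was 1.59 (SE 0.21, adjusted p 8.52e-06 by edgeR's quasi-likelihood test). Trim12a had 19.9, 28.4 and 36.3 CPM in model livers, against 9.14, 12.1 and 22.9 CPM in control livers, with a log2 fold change of 1.08 (SE 0.22, adjusted p 0.000553 by edgeR's quasi-likelihood test). Its ranges met at a single pair, model 4 at 19.9 CPM and control 1 at 22.9 CPM.

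Trim34a, which in humans has an interferon-inducible counterpart that helps TRIM5 restrict retroviral capsids, had 8.90, 12.3 and 16.2 CPM in model livers, against 4.46, 7.02 and 7.72 CPM in control livers. The groups did not overlap, and the log2 fold change was 0.96 (SE 0.20, adjusted p 0.000767 by edgeR's quasi-likelihood test). Trim34a shares 39.8% of its 50-base stretches with Trim34b and 609 exonic bases with the antisense gene Gm47248, so its counts may hold or lose reads of both. Trim5 itself had 1.04, 1.61 and 2.97 CPM in model livers, against 1.17, 1.48 and 1.93 CPM in control livers, with a log2 fold change of 0.33 (SE 0.27, adjusted p 0.328 by edgeR's quasi-likelihood test). The ranges of Trim5 overlapped widely, and 29.5% of its stretches occur in other members, mostly in Trim12c, so the values of these neighbours are uncertain. Of the 10 cluster members, 9 were tested and 8 were higher, where 26.6% of all tested genes were, with a median log2 fold change of 2.77. The cluster summed to 173.6, 200.8 and 266.2 CPM in model livers, against 34.7, 37.9 and 48.1 CPM in controls.

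Outside the cluster, Trim21 and Trim56 were higher, and Trim25, Trim26 and Trim14 were not called. Trim21 (ENSMUSG00000030966.14), a cytosolic Fc receptor that marks antibody-coated viruses for the proteasome, had a lowest, median and highest value of 8.08, 17.1 and 37.9 CPM in model livers, against 2.65, 4.05 and 4.61 CPM in control livers. All model livers were above all control livers, but they were spread widely, with 37.9, 35.3 and 31.1 CPM in models 2, 6 and 5 and 8.08 to 20.02 CPM in the other 5. The log2 fold change was 2.47 (SE 0.37, adjusted p 3.29e-05 by edgeR's quasi-likelihood test). Trim56, an antiviral ligase linked to the DNA-sensing adaptor STING, had 25.5, 32.1 and 84.3 CPM in model livers, against 2.97, 6.54 and 16.0 CPM in control livers. Model 2 was highest, no model liver reached the control range, and the log2 fold change was 2.48 (SE 0.39, adjusted p 4.78e-05 by edgeR's quasi-likelihood test).

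Trim25 was abundant in both groups, with 27.6, 78.7 and 115.7 CPM in model livers, against 36.7, 43.8 and 64.8 CPM in control livers. In 5 of the 8 model livers it lay above every control liver, while in models 3 and 4 it lay below every one, at 27.6 and 34.7 CPM. Its log2 fold change was 0.68 (SE 0.30, adjusted p 0.0747 by edgeR's quasi-likelihood test). It was called higher without model 3 (adjusted p 0.0210), without model 4 (adjusted p 0.0338), without control 6 (adjusted p 0.0375) and without models 3 and 4 together (log2 fold change 0.94, SE 0.23, adjusted p 0.00369), all by edgeR's quasi-likelihood test. Models 3 and 4 were also the libraries with the highest ribosomal RNA shares given above, and the part of RNA quality in this difference was not tested. Trim26, a ligase that acts on nuclear IRF3, had 14.1, 24.7 and 33.6 CPM in model livers, against 16.2, 20.3 and 30.04 CPM in control livers, which overlapped throughout. Its log2 fold change was 0.10 (SE 0.23, adjusted p 0.732 by edgeR's quasi-likelihood test), and its sign turned under 3 other scalings. Trim14, which lacks a RING finger and serves as an adaptor of the mitochondrial signalling protein MAVS in human cells, had 3.59, 4.15 and 8.23 CPM in model livers, against 1.16, 4.81 and 13.7 CPM in control livers. Controls 3 and 6, the controls with the most positive length slopes, held the highest values at 9.54 and 13.7 CPM, and control 1, with the most negative slope, held the lowest. The log2 fold change of Trim14 was -0.38 (SE 0.38, adjusted p 0.438 by edgeR's quasi-likelihood test) and -0.62 (SE 0.35, adjusted p 0.140) with the exonic length offset, and 1356 of its exonic bases overlap Nans on the other strand.

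**Figure D3:**
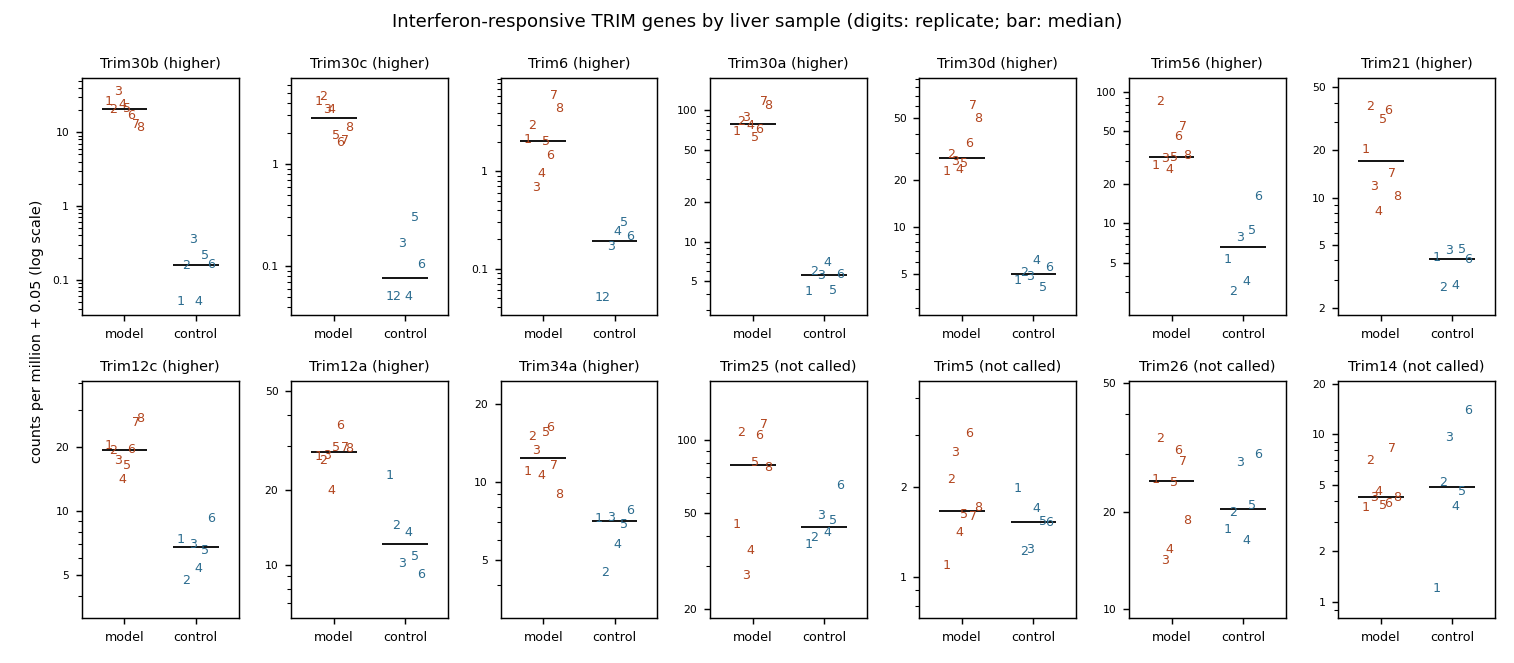
CPM plus 0.05 on log axes for the 14 interferon-responsive TRIM genes tested, 1 panel per gene, with each digit a liver sample of that replicate number and the bar at the group median. In 9 panels no model liver overlaps a control liver; Trim12a meets at 1 control, and Trim25, Trim5, Trim26 and Trim14 overlap.

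Group ranges did not overlap, with model above control, for 9 of the 14 interferon-responsive members and for 1 of the 21 other members, against 14.6% of all tested genes. With model below control this held for 1 other member, Trim23, against 8.63% of all tested genes below and 23.2% in either direction. Summed over the 16 interferon-responsive genes, the level was 261.7, 367.0 and 487.8 CPM in model livers, against 106.0, 116.3 and 168.0 CPM in controls. Summed over the 52 others it was 155.0, 189.8 and 340.9 CPM in model livers, against 147.6, 174.3 and 226.4 CPM in controls. Per kilobase of exon, Trim30a was the most abundant tested member in model livers, at 20.4 ± 4.62 CPM per kb, against 1.30 ± 0.253 CPM per kb in control livers, where it ranked 16 of 35 (SD, n = 8 and 6). Trim25 ranked second in model livers at 12.8 ± 5.99 CPM per kb and first in control livers at 8.03 ± 1.75 CPM per kb, followed there by Trim28 at 6.89 ± 1.68 CPM per kb. The next level in model livers was that of Trim30d at 9.05 ± 3.68 CPM per kb, which lies within the spread of Trim25 but below that of Trim30a.

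White blood cell markers moved with these genes. All 10 neutrophil markers were higher, and their sum was 1238 to 2868 CPM in model livers, against 3.79 to 16.7 CPM in controls, where the defining marker Ly6g had no count in any library. All 7 monocyte and macrophage markers tested were higher, with a sum of 346.5 to 595.8 CPM in model livers, against 123.9 to 332.4 CPM in controls. Of 6 Kupffer cell markers 3 were higher and 2 were lower, with a sum of 205.6 to 440.5 CPM in model livers, against 185.2 to 269.6 CPM in controls. Of 7 dendritic cell markers 4 were tested and 3 were higher, and of 9 markers of T, NK and B cells 5 were tested and 2 were higher. For all these marker counts, the shares of all tested genes were 26.6% higher and 21.3% lower. Among the model livers, the neutrophil sum was highest in model 5, at 2868 CPM, and lowest in model 7, at 1238 CPM. Of the 10 interferon-responsive members called, 4 (Trim21, Trim30b, Trim30c and Trim34a) were higher in model 5 than in model 7 and 6 were higher in model 7. Trim21 had 31.1 CPM in model 5 and 14.2 CPM in model 7, and Trim30a had 62.3 CPM in model 5 and 115.6 CPM in model 7. These 2 libraries also had the lowest and the highest length slope of the model group, at -0.22 in model 5 and 0.27 in model 7. The most abundant neutrophil markers have 0.522 and 0.694 kb of exon, against 1.72 to 9.28 kb for the 10 members. The part of gene length in this comparison was not tested. The part of incoming cells in the TRIM differences was not tested, and in whole liver fewer cells of a type and less RNA per cell cannot be told apart.

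Among the other TRIM genes, the changes were smaller and went both ways. Trim47, a RING ligase with a PRY-SPRY domain, was 4.22-fold higher, and Trim39, Trim8, Trim35 and Trim44 were higher by less. Trim23, Trim45, Trim37 and Trim7 were lower. Of the 4 genes listed for a protein domain of their own kind, Trim44 was higher and Trim23, Trim37 and Trim45 were lower, where 26.6% of all tested genes were higher and 21.3% were lower. Of the 6 tested members linked to NF-kB signalling, cell death or autophagy, Trim8, Trim35 and Trim39 were higher and Trim11, Trim27 and Trim65 were not called. Without model 2, only 3 other members were called higher, where 23.3% of all tested genes were. Without models 7 and 8 there were 3, where 25.3% of all tested genes were higher. Without control 6 there were 8, where 30.5% of all tested genes were higher, and these 8 include Trim69, which failed the filter in the main fit. With the exonic length offset 3 were higher and 8 lower, where 21.9% of all tested genes were higher and 35.2% lower, and with library totals 2 were higher, where 19.6% of all tested genes were.

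Trim47 had a lowest, median and highest value of 3.40, 6.56 and 17.6 CPM in model livers, against 1.42, 2.03 and 3.08 CPM in control livers. Its groups did not overlap, its highest values were in models 8 and 7, and its log2 fold change was 2.08 (SE 0.38, adjusted p 0.000213 by edgeR's quasi-likelihood test). It shares 225 exonic bases with Trim65 on the same strand, and Trim65 was not called, at a log2 fold change of -0.68 (SE 0.33). Trim39, which in human cells stabilises the proapoptotic protein MOAP1, had 5.90, 8.74 and 38.2 CPM in model livers, against 6.07, 6.38 and 7.09 CPM in control livers. The difference lay mostly in models 7 and 8, at 38.2 and 25.7 CPM, while the other 6 model livers held 5.90 to 14.4 CPM. Its log2 fold change was 1.17 (SE 0.39, adjusted p 0.0207 by edgeR's quasi-likelihood test), and without models 7 and 8 it was 0.49 (SE 0.22, adjusted p 0.0836 by the same test). The call of Trim39 was lost in 5 of 25 alternatives. Besides the fit without models 7 and 8, these were library totals, limma-voom, the replicate block and the exonic length offset.

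Trim8, which promotes NF-kB signalling and was first found as a partner of SOCS1, had 9.43, 22.4 and 45.8 CPM in model livers, against 8.10, 10.5 and 19.6 CPM in control livers. In 4 model livers it lay above all controls and in models 3 and 4 it lay below the control median, and the log2 fold change of 0.98 (SE 0.35, adjusted p 0.0284 by edgeR's quasi-likelihood test) lost its call in 13 of 25 alternatives. Among these were the fits that left out model 2, model 6, model 7, or controls 1, 2, 4 or 5. Trim35, described in blood cells as a growth-suppressing ligase, had 2.89, 5.19 and 8.91 CPM in model livers, against 2.33, 2.87 and 3.67 CPM in control livers. It exceeded all controls in 7 of the 8 model livers, with a log2 fold change of 0.92 (SE 0.24, adjusted p 0.00451 by edgeR's quasi-likelihood test). Trim44, which has a zinc finger of deubiquitinases in place of the RING, had 21.7, 30.7 and 46.5 CPM in model livers, against 10.8, 17.2 and 28.6 CPM in control livers. It exceeded all controls in 5 model livers, with a log2 fold change of 0.82 (SE 0.26, adjusted p 0.0159 by edgeR's quasi-likelihood test), and it was not called without model 2 (adjusted p 0.0601) or with library totals (log2 fold change 0.54, adjusted p 0.172).

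Of the lower members, Trim23, which carries a GTPase domain of the ARF family, had a lowest, median and highest value of 3.02, 4.87 and 9.78 CPM in model livers, against 10.7, 13.7 and 21.1 CPM in control livers. Every model liver was below every control liver, and the log2 fold change was -1.32 (SE 0.26, adjusted p 0.000448 by edgeR's quasi-likelihood test). Trim37, a peroxisome and centrosome protein mutated in human Mulibrey nanism, had 3.99, 6.33 and 7.64 CPM in model livers, against 7.32, 10.9 and 11.8 CPM in control livers. All model livers but model 1 were below all controls, with a log2 fold change of -0.76 (SE 0.20, adjusted p 0.00395 by edgeR's quasi-likelihood test). Trim45, which has a filamin-type domain, had 0.231, 0.506 and 0.959 CPM in model livers, against 0.906, 1.16 and 1.67 CPM in control livers. In 6 model livers it was below all controls, with a log2 fold change of -1.08 (SE 0.34, adjusted p 0.0147 by edgeR's quasi-likelihood test), and without models 7 and 8 the adjusted p was 0.0552 by the same test. Trim7, which binds the glycogen primer glycogenin, had 1.37, 2.83 and 6.07 CPM in model livers, against 3.73, 5.09 and 7.88 CPM in control livers. It was below all controls in 7 model livers, model 3 being the exception, with a log2 fold change of -0.82 (SE 0.30, adjusted p 0.0302 by edgeR's quasi-likelihood test). Without model 6, model 7, model 8 or control 6 the call of Trim7 was lost, with an adjusted p of up to 0.0956 by the same test, and antisense genes overlap its exons.

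**Figure D4:**
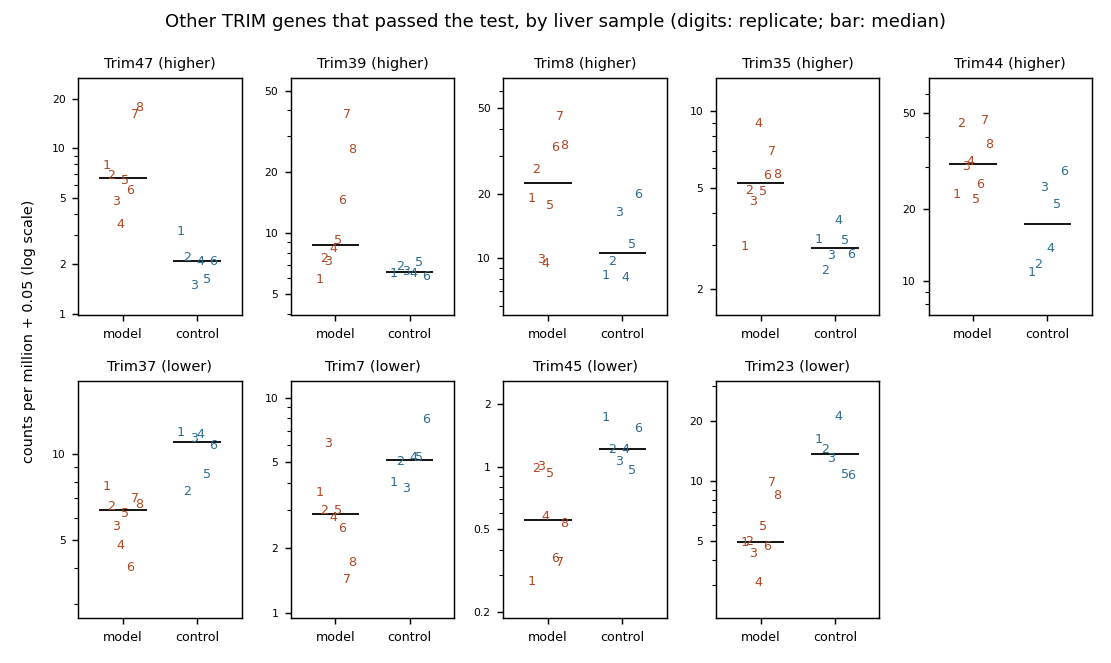
CPM plus 0.05 on log axes for the 9 other TRIM genes that passed the test, 1 panel per gene, with each digit a liver sample of that replicate number and the bar at the group median. In Trim47 all model livers lie above the controls and in Trim23 all lie below; Trim39 is set apart by models 7 and 8, at 38.2 and 25.7 CPM.

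The remaining 12 other members tested were not called, and their log2 fold changes lay between -0.68 and 0.86. They include the nuclear cofactors with a PHD finger and a bromodomain. Trim24, a corepressor of retinoic acid receptors that restrains liver tumours in mice, had a log2 fold change of 0.79 (SE 0.34), Trim33 of 0.49 (SE 0.31) and Trim28, the corepressor that silences retroelements, of -0.45 (SE 0.22). By edgeR's quasi-likelihood test 0 of these 3 were called, as by DESeq2 and limma-voom, and 1, Trim24, was higher at an unadjusted p under 0.05. Trim24 was called higher without model 3, without model 4 or without control 6, and Trim28 was called lower without model 7, without models 7 and 8, with upper-quartile factors, with library totals and with the exonic length offset. The NHL-repeat members Trim2, Trim3 and Trim32 had log2 fold changes of -0.37 (SE 0.24), 0.20 (SE 0.29) and 0.86 (SE 0.44), and 0 of the 3 were called by edgeR, DESeq2 or limma-voom or had an unadjusted p under 0.05. Trim13, which sits in the endoplasmic reticulum membrane, had a log2 fold change of 0.57 (SE 0.35). Model 7 held the highest value for 18 of the 35 tested members, and model 4 the lowest for 10.

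The filter left 33 members untested, of which 11 had no count in any library and 22 had at least 1. None had a group mean above 1.41 CPM. In the fit with no filter, 7 of these were called higher and 1 lower by edgeR's quasi-likelihood test, where 17.5% of the 25293 genes tested were higher and 11.6% were lower. Trim69, an interferon-inducible antiviral gene in humans, had 0.414, 1.499 and 2.66 CPM in model livers, against 0, 0.0274 and 0.119 CPM in control livers, so the groups did not overlap. Trim36 and Trim16 averaged 1.18 ± 0.62 and 0.616 ± 0.463 CPM in model livers, against 0.134 ± 0.185 and 0.0517 ± 0.0579 CPM in control livers (SD, n = 8 and 6). The lowest model and the highest control library by CPM held 9 and 8 counts of Trim36, and 2 and 2 counts of Trim16. Trim16 takes part in clearing damaged lysosomes in human cells. Trim10, a gene of red cell precursors, had 96 counts over the model libraries and 10 over the controls, and its values fell between 0.138 and 2.89 CPM in model livers, against 0 to 0.424 CPM in controls. Trim15 had 40 counts over the model libraries and 1 over the controls, a ratio of 29.8 with an exact 95% counting interval of 5.05 to 1206. Models 7 and 8 held 23 and 9 of these 40 counts, and models 1, 3 and 4 held 0. Trim43a had 22 counts and Trim9 had 8 over the model libraries and both had 0 over the controls, which made them at least 5.46-fold and at least 1.99-fold higher against 3 counts over the control group. Intervals and floors of this kind cover counting error only. Trim80 was lower, at 0.145 ± 0.194 CPM in model livers, against 0.670 ± 0.265 CPM in control livers (SD, n = 8 and 6). Of the interferon-responsive members, Trim34b had 68 counts over model and 22 over control libraries, and Trim38, a feedback regulator of Toll-like receptor signalling, had 9 over model and 1 over control libraries. Of the muscle members, Trim54 and Trim55 had no count, Trim63 had 1 count over all libraries, and Trim72, a membrane repair protein of muscle, had 44 counts over model and 31 over control libraries.

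TRIM proteins with other symbols were counted apart. Of Mefv, Mid1, Pml and Mid2, 3 were higher and Mid2 was not called, where 26.6% of all tested genes were higher. Mefv, which encodes the inflammasome sensor pyrin, had a lowest, median and highest value of 16.8, 22.7 and 31.5 CPM in model livers, against 0.129, 0.285 and 0.965 CPM in control livers, with no overlap. Its log2 fold change was 5.80 (SE 0.36, adjusted p 8.46e-10 by edgeR's quasi-likelihood test). Mid1, a microtubule-bound ligase, had a log2 fold change of 2.81 (SE 0.41), and Pml, the organiser of nuclear bodies, one of 1.38 (SE 0.32).

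Genes of interferon signalling and interferon targets were mostly higher as well, where 26.6% of all tested genes were higher. Of 15 signalling genes tested, 12 were higher, led by the feedback inhibitor Socs1 at a log2 fold change of 6.78 (SE 0.52) and the transcription factor Irf1 at 3.86 (SE 0.47). Irf9, which takes part in binding the response element, had a log2 fold change of 1.23 (SE 0.18), and its groups did not overlap. Of 14 interferon targets 13 were higher, led by the chemokine Cxcl10 at 8.94 (SE 0.70) and the GTPase Gbp2 at 7.26 (SE 0.31). The listed interferon genes, Ifnb1 and Ifng, were near the detection floor, and other interferon genes were not examined. Ifnb1 had 9 counts over the model libraries and 1 over the controls, and Ifng had 27 over the model libraries and 0 over the controls.

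Of 12 genes of RNA sensing, in which Trim25 acts, and of DNA sensing, 10 were higher and 2 were lower. Cgas and Sting1, the DNA sensor and its adaptor, had log2 fold changes of 3.13 (SE 0.47) and 3.03 (SE 0.28), and the adaptor Mavs and the factor Irf3 had -1.25 (SE 0.30) and -0.60 (SE 0.16). Of 7 genes of the ubiquitin-like modifier ISG15, its conjugation and removal, and the activation of ubiquitin, 6 were higher, with Isg15 itself at 4.02 (SE 0.36) and the protease Usp18 at 3.39 (SE 0.42). Of 10 E2 enzymes that serve TRIM ligases, Ube2e3 and Ube2e2 were lower, at -0.61 (SE 0.18) and -0.56 (SE 0.18), and the other 8 were not called. Shares of all tested genes for these counts are those given above, 26.6% higher and 21.3% lower.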

How the data were processed

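RNA was measured by sequencing of poly(A)-selected liver RNA, 1 library per sample. The authors deposited raw counts of reads for each gene. The submitters' processing notes name HISAT2 and the build GRCm39. Not given in the sources used here are the version of HISAT2, the read counter, whether it used strand, and the annotation. Without a stated strand, reads of overlapping genes on opposite strands cannot be told apart. Summary lines that name no gene held 27.4% to 45.6% of entries, reads aligned to several places 13.4% to 18.6%, and all stayed out of totals and tests. The test was that of edgeR 4.0.16 (R 4.3.3) on the 14 libraries (filterByExpr, TMM factors, robust quasi-likelihood fit with group as the only term), with adjustment over 12915 genes. CPM used TMM factors. The SE is the log2 fold change over the root of F. Alternatives used DESeq2 1.42.0, limma-voom (limma 3.58.1), other scalings and filters, a replicate block, an exonic length offset and left-out libraries. The test was first run on simulated data. Members and lists were chosen with earlier results of these data known. Members with values in full are the tested interferon-responsive ones and other called ones that average 1 CPM or more in either group; of further lists, the 2 largest called changes are given, plus Irf9 and Isg15, and Mavs, Irf3, Pml, Ly6g, Ifnb1 and Ifng were added after their values were seen. Exonic lengths, overlaps and shared 50-base stretches came from GENCODE M21 on GRCm38 by gene identifier. No protein sequence was used here. A gene fixed for naming and a further motif searched are not reported here. The number of libraries and the depth limit precision; low members were given as counts.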

Additional observations from a re-analysis of the deposited data

Results flagged for a closer look

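Among 46 groups of values, 2 per member for 23 members, 2 samples stood far from the rest of their group, and chance alone sets apart about 1 in 20 groups. Trim7 stood at 6.07 CPM in model 3, where the other model livers held 1.37 to 3.59 CPM. Trim7 also stood at 7.88 CPM in control 6, where the other control livers held 3.73 to 5.21 CPM.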

How the results depend on the processing

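All 10 interferon-responsive members called higher kept their direction and call in each of the 25 alternatives that gave them a value; Trim6 had none without models 7 and 8, which left 9 called. Over 23 named members, 536 of 574 values kept direction and call, 29 lost a call, 4 gained one and 5 changed sign. The count of other members called higher, 5, was 2 with library totals, 3 with limma-voom, 12 with no filter, 2 with the replicate block, 3 with the exonic length offset and 3 without models 7 and 8. In the same order, 19.6%, 26.3%, 17.5%, 23.1%, 21.9% and 25.3% of all tested genes were higher, against 26.6% in the main fit. The count of members called lower, 4, was 8 with the length offset, in the whole family and among the other members alike, where Trim2, Trim28, Trim41 and Trim65 were added; the share of all genes called lower was 35.2% there, against 21.3%, and the cause was not tested. Leaving out 1 library at a time gave 13 to 19 members higher, 3 to 5 lower, 10 to 11 interferon-responsive members higher, 3 to 8 other members higher and 3 to 5 other members lower. In these fits 23.3% to 30.5% of all tested genes were higher and 18.8% to 21.9% were lower. The 13 came without model 2 and the 19 without control 6, the fits with the lowest and the highest share of all genes called higher. Trim26 turned to -0.23 with the length offset, -0.17 with library totals, -0.0699 with upper-quartile factors and -0.0495 without model 2 (0.25 at most, without control 6), and Trim14 to 0.0468 without control 6 (-0.59 at least, without control 1). These scalings moved the median of all genes to -0.25, -0.23 and -0.14, against 0.01. Same-numbered libraries did not deviate together (correlations of -0.31 to 0.32, and only replicate 1 correlated best with its own number). The replicate block gave 12 members higher and 3 lower, without Trim8, Trim39, Trim44, Trim7 and Trim45 and with Trim28. In that fit 23.1% of all tested genes were higher and 18.5% were lower. Numbers 7 and 8 occur only among model libraries, so the block also takes models 7 and 8 out of the group comparison. The narrower interferon list had 7 of 9 members higher, where 26.6% of all tested genes were. Its median log2 fold change was 1.59 and its highest 3.96, since it leaves out Trim30b, Trim30c and Trim6. Members under about 1 CPM are limited by depth.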
